A study of Rattus norvegicus with 12 samples.

Results

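The genes described here work in protein folding and in the stress response of the endoplasmic reticulum (ER). They are 37 genes named by symbol, and 36 of them had a row in both the jejunum table (21568 genes) and the liver table (18703 genes). The expression of Derl3 was not analysed here. All 36 had a mean of at least 1 normalized count in each tissue and entered every test. RNA came from jejunum and liver of Wistar Han rats housed under specific-pathogen-free conditions, with 3 libraries in each of 4 groups. Both groups received liquid by gavage at 5 mL/kg for 2 weeks. The group labelled wild type received saline. The antibiotics group received amphotericin B (0.2 g/L), vancomycin (10 g/L) and, each at 20 g/L, metronidazole, neomycin sulfate and ampicillin, a mixture meant to deplete the gut flora. The labels give neither age nor sex, and they do not say that each library is a separate animal, so p-values measure the spread between these libraries.

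Proteins bound for secretion, the plasma membrane and lysosomes are folded in the ER. Hsp70- and Hsp90-type chaperones, lectins that read sugar chains and enzymes that form disulfide bonds assist the folding. Proteins that fail to fold are drawn back into the cytosol and destroyed by ER-associated degradation. When misfolded proteins build up, the sensors ATF6, IRE1 (gene Ern1) and PERK (gene Eif2ak3) start the unfolded protein response. Cleaved ATF6 and the spliced form of XBP1 raise transcription of chaperone and degradation genes, while PERK slows translation and, through ATF4, induces the factor CHOP (gene Ddit3). Hepatocytes secrete most plasma proteins, and in the jejunum Paneth, goblet and plasma cells are the specialised secretory cells.

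Promoters of such genes are known for the ER stress response element (ERSE), which ATF6 binds together with the factor NF-Y. Promoter windows from 250 bases before to 50 bases after the transcription start were read from RefSeq, rat build GRCr8, where 29 of the 37 genes had one (30 windows, since Hyou1 has a pair). The ERSE was searched on both strands as CCAAT, a spacer of 9 bases of any kind and CCACG, and was present in 8 of the 30 windows (26.7%), against 0.0657% of all 33469 windows. The related ERSE-II, searched as ATTGG, a spacer of 1 base and CCACG, was present in 3 (10.0%), against 0.0508% of all windows. Both motifs hold CCACG, and their CCAAT part was also searched alone: CCAAT on either strand was in 86.7% of the members' windows and 37.5% of all, and CCACG in 73.3% and 31.6%. The element of spliced XBP1 and ATF6 known as UPRE, searched as TGACGTGG, was in 3.33% of the members' windows and 0.595% of all. Of the 15 genes with a window that rose in liver below, 5 held the ERSE and 2 the ERSE-II, beside 8 and 3 of all 29 genes with a window. A link between motif and rise was not tested. The matches follow because they show how the spacer differs between genes while the ends are fixed by the search. Each is read 5′ to 3′ on the strand on which the motif lies, with the fixed ends in capitals.
Hspa5, chr3:38452973-38452991, plus strand: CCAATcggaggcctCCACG
Hsp90b1 (first match), chr7:23012451-23012469, minus strand: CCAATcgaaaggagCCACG
Hsp90b1 (second match), chr7:23012347-23012365, plus strand: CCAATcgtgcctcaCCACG
Calr, chr19:40213135-40213153, minus strand: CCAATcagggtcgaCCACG
Canx, chr10:35158069-35158087, minus strand: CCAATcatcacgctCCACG
Creld2, chr7:121789239-121789257, minus strand: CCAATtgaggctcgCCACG
Dnajc3, chr15:102432534-102432552, plus strand: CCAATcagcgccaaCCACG
Xbp1, chr14:84604558-84604576, plus strand: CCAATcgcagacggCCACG
Dnajb11, chr11:91672800-91672810, minus strand: ATTGGcCCACG
Herpud1, chr19:10614821-10614831, minus strand: ATTGGgCCACG
Hyou1 (first match), chr8:53602794-53602804, minus strand: ATTGGgCCACG
Hyou1 (second match), chr8:53602694-53602704, minus strand: ATTGGcCCACG

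The matches began between 232 bases (Calr) and 10 bases (Dnajb11) before the start site, and the match in Hspa5 began 43 bases before it. The remaining ERSE match was in the window of Derl3. Whole windows are shown for 3 genes, all on the plus strand: Hspa5, the central chaperone of the ER, Creld2, whose change differed between the tissues, and Hyou1, which holds a pair of ERSE-II matches. Capitals mark the ERSE or ERSE-II as it stands on the plus strand, so that the matches of Creld2 and Hyou1, which lie on the minus strand, appear as the reverse complement. The UPRE of Hyou1 overlaps its ERSE-II that lies farther from the start, beginning 191 and 188 bases before it.
Hspa5, chr3:38452766-38453065: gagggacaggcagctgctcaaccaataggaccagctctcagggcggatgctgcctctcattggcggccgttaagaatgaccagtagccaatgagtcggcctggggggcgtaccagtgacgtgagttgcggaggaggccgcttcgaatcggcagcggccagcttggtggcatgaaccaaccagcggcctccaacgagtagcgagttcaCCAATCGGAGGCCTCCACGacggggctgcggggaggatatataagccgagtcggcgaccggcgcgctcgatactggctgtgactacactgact
Creld2, chr7:121789134-121789433: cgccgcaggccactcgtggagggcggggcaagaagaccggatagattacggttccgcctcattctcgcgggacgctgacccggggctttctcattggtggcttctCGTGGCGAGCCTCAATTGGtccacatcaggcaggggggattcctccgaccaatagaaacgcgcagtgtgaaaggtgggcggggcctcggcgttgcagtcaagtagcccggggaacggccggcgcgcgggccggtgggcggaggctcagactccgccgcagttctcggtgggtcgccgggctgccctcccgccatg
Hyou1, chr8:53602632-53602931: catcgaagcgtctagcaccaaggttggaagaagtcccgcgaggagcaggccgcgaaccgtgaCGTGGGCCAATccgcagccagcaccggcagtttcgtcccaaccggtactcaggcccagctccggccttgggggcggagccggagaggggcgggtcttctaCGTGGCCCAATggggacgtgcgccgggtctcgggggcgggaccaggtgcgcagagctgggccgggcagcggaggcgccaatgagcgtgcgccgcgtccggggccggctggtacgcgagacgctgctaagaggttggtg

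The deposited values are reads divided by 1 factor per library, and the recovered reads were 14592126 to 18322008 per library in jejunum and 15017775 to 19318616 in liver. Genes of the mitochondrial genome took 3.57% to 4.45% of reads in the liver antibiotics libraries and 24.8%, 6.36% and 15.9% in liver wild type 1, 2 and 3. In jejunum their share was 61.5%, 26.4% and 78.9% in wild type 1, 2 and 3, and it was 63%, 49.3% and 37.6% in antibiotics 1, 2 and 3. The tissue labels held on markers: 9 hepatocyte markers summed to at least 1459840 normalized counts in every liver library, against at most 17377 for the 8 found in the jejunum table. The 9 enterocyte markers summed to 26547 to 65230 in jejunum, against 3177 to 5734 for the 7 found in the liver table, and no marker of either list was at 0 in its own tissue.

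The first comparison asked whether the ER genes of the liver differed with antibiotics. Most of them were higher in the liver of treated rats. Of the 36 genes, 18 rose and 1 fell at a limma adjusted p under 0.05, beside 7.93% of all 16540 genes that rose and 4.89% that fell. The log2 fold change of antibiotics over wild type was above 0 for 32 of them (49.7% of all genes), with a median of 0.77, against −0.01 over all genes. For 23 genes all 3 antibiotics libraries lay above all 3 wild-type libraries (19.7% of all genes did so), and for 1 gene they lay below (18.1%). The largest rises belonged to Edem3, Fam8a1, Atf6, Edem1 and Hyou1, with log2 fold changes between 2.04 and 3.81. At the adjusted p of the authors' deposited table, 19 of the genes are higher and 1 is lower, and these include all 19 called here.

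How many genes were called depended on single libraries. Without wild type 1, 2 or 3 the calls were 11, 23 and 3, and without antibiotics 1, 2 or 3 they were 4, 5 and 6. Over all liver genes the same fits called 918, 4416 and 74, and 482, 528 and 379. Creld2, Edem1 and Hyou1 were the 3 called in all 6 of these fits. All 19 genes kept the sign of their fold change in every one of them. Wild type 2 was the highest wild-type library for 15 of the 18 genes that rose, and wild type 1 was the lowest for 15. This order is also the order of the mitochondrial share of reads (6.36%, 15.9% and 24.8% in wild type 2, 3 and 1, and at most 4.45% with antibiotics), whose part in the rise was not tested. Markers of Kupffer cells, the macrophages of the liver, moved as well: 4 of 10 fell, all 10 had fold changes below 0, and they summed to 12838 to 18583 normalized counts in wild type and 8178 to 9750 with antibiotics. Of the 9 hepatocyte markers 1 rose and 1 fell, and their sums overlapped between the groups (1763040 to 1938190 and 1459840 to 2485950). Sums were also apart for pancreatic acinar markers (1 of 7 fell; 305 to 782 in wild type and 135 to 187 with antibiotics) and for cholangiocyte markers (572 to 613 and 434 to 504). Of 4 adipocyte markers tested 1 fell, with sums of 1465 to 2083 and 1098 to 1683 that overlapped. In bulk RNA, fewer cells of a type and less RNA per cell cannot be told apart, and the part of cell composition in the rise was not tested.

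**Figure D1:**
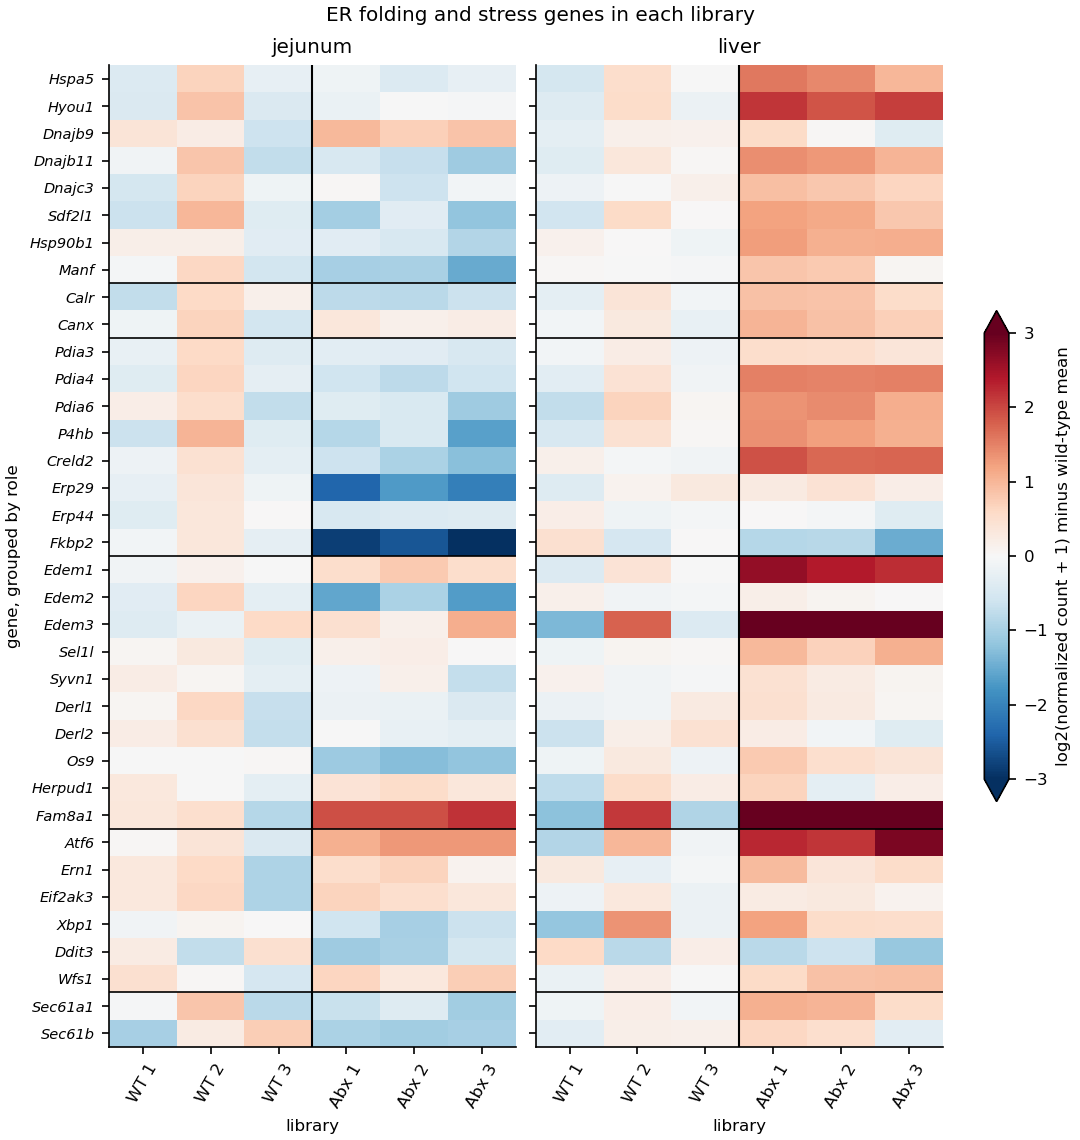
Heat map of the 36 genes (rows, grouped by role, with lines between roles) in each library (columns, WT wild type, Abx antibiotics). Colour is log2(normalized count + 1) minus the mean of the 3 wild-type libraries of the same tissue, red above and blue below it. In liver 32 of 36 genes had a fold change above 0, and in jejunum 25 of 36 had one below 0.

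Of the Hsp70 and Hsp90 chaperones and their partners, 6 of 8 rose in liver, all 8 had fold changes above 0, and the median was 1.09 on the log2 scale. Hspa5 encodes BiP, the Hsp70 of the ER lumen (chromosome 3, 13838304 to 13842762 in the table, whose build is not given in the sources used here). Its normalized counts were 4111, 8505 and 5907 in the wild-type libraries and 17679, 16015 and 11753 with antibiotics. Every antibiotics library was at least 1.38 times the highest wild-type library (log2 fold change 1.34, SE 0.30, limma adjusted p = 0.0219). Hyou1, an Hsp70-like protein that exchanges the nucleotide of BiP, had 759, 1442 and 873 in the wild-type libraries and 4392, 3666 and 4120.2 with antibiotics. The groups were 2.54-fold apart at their nearest libraries (log2 fold change 2.04, SE 0.25, limma adjusted p = 0.00522). Hsp90b1, the Hsp90 of the ER, also called GRP94, had 7122, 6597 and 6007 in the wild-type libraries and 15702, 13711 and 13854 with antibiotics. All wild-type libraries were close together, and the lowest antibiotics library was 1.93 times the highest of them (log2 fold change 1.13, SE 0.21, limma adjusted p = 0.0126).

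Dnajb11 and Dnajc3 are J-domain co-chaperones that hand clients to BiP, and Dnajc3 is also known as an inhibitor of PERK. Dnajb11 had 678, 1099 and 898 in the wild-type libraries and 2295, 2152 and 1783 with antibiotics, without overlap (log2 fold change 1.24, SE 0.22, limma adjusted p = 0.0119). Dnajc3 had 1992, 2204 and 2449 in the wild-type libraries and 4148, 3845 and 3463 with antibiotics, again with every antibiotics library above every wild-type one (log2 fold change 0.79, SE 0.19, limma adjusted p = 0.0294). Sdf2l1, a partner of Dnajb11, rose from 938 ± 369 to 1854 ± 258 (SD, n = 3 each; log2 fold change 1.05, SE 0.28, limma adjusted p = 0.0383). The remaining pair did not pass. Manf, a secreted BiP-binding factor, had a log2 fold change of 0.56 (adjusted p = 0.136), and the co-chaperone Dnajb9 had 0.08 (adjusted p = 0.858). Apart from Hyou1, each of these rises lost its call in at least 1 of the 6 fits without a library, and without wild type 3 their adjusted p was 0.0719 to 0.138.

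Calnexin and calreticulin hold new glycoproteins by their glucose-tipped sugar chains. Canx, the membrane-bound calnexin, had 4153, 5345 and 3744 in the wild-type libraries and 8801, 7967 and 7196 with antibiotics. Its groups did not overlap and it rose (log2 fold change 0.87, SE 0.22, limma adjusted p = 0.032, but 0.14 without wild type 3). Calr, the soluble calreticulin, did not pass: its counts were 12962 ± 3187 in wild type and 21690.4 ± 2538 with antibiotics (SD, n = 3 each), and its log2 fold change was 0.76 (adjusted p = 0.0679). Its groups did not overlap, and DESeq2 called it higher, here and in the authors' deposited values (DESeq2 adjusted p = 0.0177 in both).

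Among enzymes that act on disulfide and proline bonds, 4 of 8 rose in liver and 1 fell, with a median log2 fold change of 0.84. Creld2, an ER protein with disulfide isomerase activity, gave the smallest p of the 36 genes. Its normalized counts were 469, 408 and 393 in the wild-type libraries and 1575, 1394 and 1407 with antibiotics. The libraries of each group were close together and the groups were 2.97-fold apart at their nearest libraries (log2 fold change 1.79, SE 0.17, limma adjusted p = 0.00258). Pdia4, a disulfide isomerase also called ERp72, had 2785, 4672 and 3229.7 in the wild-type libraries and 9994, 9835 and 9901 with antibiotics. Its antibiotics libraries were nearly equal, and the lowest was 2.11 times the highest wild-type library (log2 fold change 1.51, SE 0.24, limma adjusted p = 0.00842). P4hb is the founding protein disulfide isomerase and a subunit of the collagen prolyl hydroxylase. Its counts were 8758, 16837 and 12669 in the wild-type libraries and 31914, 28854 and 25733 with antibiotics, without overlap (log2 fold change 1.22, SE 0.28, limma adjusted p = 0.0229). Pdia6, another disulfide isomerase, had 1859.8, 4925 and 3249 in the wild-type libraries and 7939, 8248 and 6618 with antibiotics, with wild type 1 well below the other wild-type libraries (log2 fold change 1.29, SE 0.32, limma adjusted p = 0.0324).

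Fkbp2, a small proline isomerase of the ER, was the gene that fell. It had 2678, 1346 and 1925 in the wild-type libraries and 1054, 1078 and 681 with antibiotics. Every antibiotics library lay below every wild-type library (log2 fold change −1.05, SE 0.28, limma adjusted p = 0.0383). Its gene length in the table, 633 bases, is the shortest of the called genes, and the call was lost when a trend of fold change with gene length was removed (adjusted p = 0.132). Pdia3, the isomerase that works with calnexin and calreticulin, had a log2 fold change of 0.47 (adjusted p = 0.166) without overlap between groups. Erp29 and Erp44, both of the thioredoxin family, had 0.31 and −0.14 (adjusted p = 0.352 and 0.652). Without wild type 3 the adjusted p of Pdia4, P4hb, Pdia6 and Fkbp2 was 0.0626 to 0.14.

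ER-associated degradation was divided: 4 of 10 genes rose, 9 were above 0, and the median log2 fold change was 0.42. Edem1 belongs to the mannosidase-like proteins that mark misfolded glycoproteins for degradation (chromosome 4, 140886545 to 140915779). It had 483, 843 and 636 in the wild-type libraries and 3954, 3295 and 2941 with antibiotics. This was the widest separation among the genes that rose, with the lowest antibiotics library 3.49 times the highest wild-type library (log2 fold change 2.40, SE 0.24, limma adjusted p = 0.00258). Edem3, a mannosidase of the same family, had 10.2, 97.0 and 20.5 in the wild-type libraries and 383, 335 and 501 with antibiotics. Its wild-type values rest on 8, 95 and 18 reads, so wild type 2 was far above the others, while all antibiotics libraries had at least 385 reads (log2 fold change 3.81, SE 0.75, limma adjusted p = 0.0261). The log2 fold change of Edem3 was 3.13 without wild type 1 and 4.69 without wild type 2. Sel1l, the adaptor of the ubiquitin ligase Syvn1, had 1929.9, 2226 and 2152 in the wild-type libraries and 4119, 3417 and 4379 with antibiotics, with little spread among wild-type libraries (log2 fold change 0.91, SE 0.20, limma adjusted p = 0.0204).

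Fam8a1, a cofactor that helps the Syvn1 complex assemble, rose from 51.3 ± 66.1 to 373 ± 71.0 (SD, n = 3 each; log2 fold change 3.65, SE 0.89, limma adjusted p = 0.0483). Its wild-type values rest on 9, 125 and 13 reads, and its log2 fold change was 3.03 without wild type 1 and 4.72 without wild type 2. The ligase Syvn1 itself had 0.26 (adjusted p = 0.359). Os9, a lectin that delivers glycoproteins to the ligase, had 0.57 without overlap (adjusted p = 0.107). Derl1 and Derl2, membrane proteins of the export channel, had 0.27 and −0.08. Herpud1, a stress-induced scaffold of the ligase, had 0.19 and Edem2 had 0.09. The adjusted p of these last 4 was 0.408 to 0.884. Without wild type 3 the adjusted p of Edem3, Sel1l and Fam8a1 was 0.0903 to 0.133.

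Of the 6 sensors and effectors, 2 rose in liver. Atf6 encodes the membrane-bound precursor of the transcription factor ATF6. It had 67.5, 249 and 115 in the wild-type libraries and 603, 555 and 885 with antibiotics. Every antibiotics library was at least 2.23 times wild type 2, the highest of its group (log2 fold change 2.41, SE 0.45, limma adjusted p = 0.0189, but 0.0872 without wild type 3). Wfs1, an ER membrane protein mutated in Wolfram syndrome, rose from 159 ± 22.7 to 274 ± 35.0 (SD, n = 3 each; log2 fold change 0.78, SE 0.21, limma adjusted p = 0.036, 0.128 without wild type 3).

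The other sensors and the factors downstream of them were not called. Ern1, the gene of IRE1, had 608, 422 and 482 in the wild-type libraries and 967, 640.1 and 735 with antibiotics, without overlap, and of the alternatives only scaling by library totals called it (log2 fold change 0.63, SE 0.22, limma adjusted p = 0.0819). Eif2ak3, the gene of PERK, had 189.8, 263 and 185 in the wild-type libraries and 247, 256 and 225 with antibiotics, which overlapped (log2 fold change 0.21, SE 0.21, limma adjusted p = 0.517). Xbp1 is the factor whose RNA IRE1 splices, a step that gene counts do not show. It had 536, 3048 and 1062 in the wild-type libraries and 2767, 1767 and 1726 with antibiotics. Wild type 2 exceeded all antibiotics libraries, and the spread in wild type left no call (log2 fold change 0.76, SE 0.61, limma adjusted p = 0.435). Its value turned on single libraries: without wild type 2 the log2 fold change was 1.43 (adjusted p = 0.00906), and without wild type 1 it was 0.18 (adjusted p = 0.837). Ddit3, the gene of CHOP and the usual marker of the PERK branch, pointed the other way, with 257, 96.0 and 194 in the wild-type libraries and 96.6, 109.7 and 76.5 with antibiotics. Wild type 2 lay among the antibiotics libraries (log2 fold change −0.85, SE 0.35, limma adjusted p = 0.127). Ddit3 had a log2 fold change of −1.25 without wild type 2 (adjusted p = 0.00381) and of −0.55 without wild type 1 (adjusted p = 0.331). Its gene length in the table is 925 bases. When the trend with gene length was removed, its log2 fold change was −0.40 (limma adjusted p = 0.394).

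The translocon is the channel by which new proteins enter the ER. Its pore subunit Sec61a1 had 2976, 3787 and 3120.1 in the wild-type libraries and 6875, 6640.2 and 4826 with antibiotics, without overlap, and rose (log2 fold change 0.88, SE 0.22, limma adjusted p = 0.0317, 0.13 without wild type 3). The small subunit Sec61b had a log2 fold change of 0.27 (adjusted p = 0.518).

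**Figure D2:**
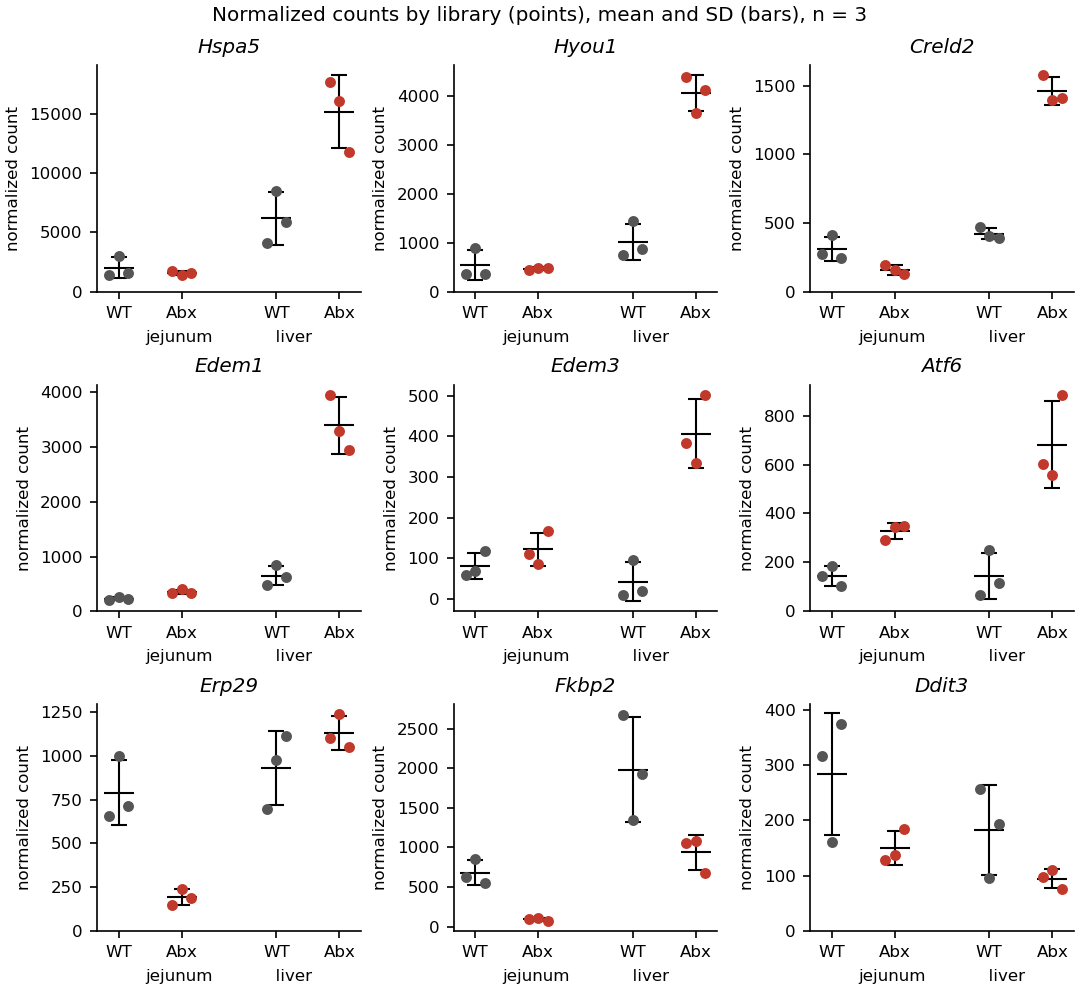
Normalized counts of 9 genes in each library (points) with the mean and SD of each group (bars, n = 3), in jejunum (left pair) and liver (right pair), WT for wild type in grey and Abx for antibiotics in red. Hspa5, Hyou1, Creld2, Edem1, Edem3 and Atf6 were higher with antibiotics in all 3 liver libraries, while Erp29 and Fkbp2 were lower in all 3 jejunal ones.

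The second comparison asked the same of the jejunum, where most of the genes lay slightly below wild type. Of the 36, 1 rose and 3 fell at a limma adjusted p under 0.05, beside 0.761% of all 19450 genes that rose and 0.519% that fell. The share of all genes called in either direction was 1.28%. The log2 fold change was below 0 for 25 and above 0 for 11 (52.9% of all genes), with a median of −0.40, against 0.06 over all genes. All antibiotics libraries lay above all wild-type libraries for 5 genes (16.6% of all genes did so) and below them for 9 (11.3%). Scaling by library totals instead of the deposited factors moved the median of all genes from 0.06 to 0.51 and that of the ER genes to 0.10, which still lay below it. With that scaling 19 of the 36 genes had fold changes above 0, against 11 with the deposited factors.

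Fkbp2 showed the largest fall, with 633, 854 and 557 in the wild-type libraries and 93.8, 112 and 78.1 with antibiotics. Each antibiotics library was far below each wild-type one (log2 fold change −2.83, SE 0.29, limma adjusted p = 0.0106). Erp29, an ER protein that helps secretory proteins move on to the Golgi, had 655, 1002 and 714 in the wild-type libraries and 148, 239.7 and 186 with antibiotics, also without overlap (log2 fold change −2.04, SE 0.29, limma adjusted p = 0.0224). Os9 had 1183, 1177 and 1217 in the wild-type libraries and 556, 495 and 520.2 with antibiotics, with almost no spread in either group (log2 fold change −1.19, SE 0.23, limma adjusted p = 0.0398). Fam8a1 was the gene that rose, with 79.9, 90.4 and 34.4 in the wild-type libraries and 243, 244 and 286 with antibiotics. Its antibiotics libraries were close together and all wild-type libraries were below them (log2 fold change 2.01, SE 0.41, limma adjusted p = 0.0443).

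With 1 jejunal library left out, the calls were 8, 2 and 2 without wild type 1, 2 or 3, and 0, 1 and 0 without antibiotics 1, 2 or 3. Over all genes the same fits called 1902, 108 and 62, and 1, 3 and 1. At an unadjusted p under 0.05, limma without antibiotics 1 or 3 had 9 of the 36 genes, beside 2683 of 19422 and 2652 of 19377 genes in all. Fkbp2 lost its call without antibiotics 1 or 3 and Erp29 without any one antibiotics library. Os9 and Fam8a1 were kept only without wild type 1. Correction for gene length left Fkbp2 alone (adjusted p = 0.0208). Scaling by library totals left none of the 36 (4 at an unadjusted p under 0.05, beside 2286 of all 19808 genes). DESeq2 called 7, adding Atf6, Edem2 and Manf, and edgeR called 3, without Fam8a1.

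The central chaperone and the sensors were not called in jejunum. Hspa5 had 1428, 3032 and 1600.2 in the wild-type libraries and 1751, 1433 and 1604 with antibiotics. Wild type 2 was high and the rest were alike (log2 fold change −0.26, SE 0.31, limma adjusted p = 0.659), and the sign turned without wild type 2 (log2 fold change 0.07) or with library totals (0.24). Atf6 had 145, 184 and 103 in the wild-type libraries and 293, 346 and 348 with antibiotics, above wild type in every library (log2 fold change 1.22, SE 0.31, limma adjusted p = 0.0694). Xbp1 had 737, 842 and 804 in the wild-type libraries and 521, 396 and 510.1 with antibiotics, below wild type in every library (log2 fold change −0.75, SE 0.24, limma adjusted p = 0.114).

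Ddit3 had 316, 161 and 374 in the wild-type libraries and 128, 136 and 185 with antibiotics, with one antibiotics library above wild type 2 (log2 fold change −0.85, SE 0.37, limma adjusted p = 0.206). Ern1 had 349, 427 and 146 in the wild-type libraries and 406, 447 and 299 with antibiotics and its groups overlapped (log2 fold change 0.44, SE 0.39, limma adjusted p = 0.543). The sign for Ern1 turned without wild type 3 (−0.03) or after correction for gene length (−0.04). Eif2ak3 had 173, 215 and 73.1 in the wild-type libraries and 223, 199 and 177 with antibiotics, with overlap (log2 fold change 0.51, SE 0.41, limma adjusted p = 0.498). Wild type 3, with the highest mitochondrial share of all libraries, was the lowest for the genes of all 3 sensors. By role, the isomerases were all 8 below 0 (median −0.80), the Hsp70 and Hsp90 group had 7 of 8 below 0 (median −0.42), and the sensors and effectors had 4 of 6 above 0 (median 0.47). The remaining genes had log2 fold changes between −1.39 (Edem2) and 0.85 (Dnajb9). None of these medians is corrected for gene length. After that correction the sensors and effectors Atf6, Wfs1 and Eif2ak3 had 0.92, 0.38 and 0.22. Ern1, Xbp1 and Ddit3 then had −0.04, −0.39 and −0.40.

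Jejunal wild type 2 stood apart for these genes. It was the highest wild-type library for 27 of the 36, and its median deviation from the gene means was 0.66 on the log2 scale, against 0.07 and −0.14 in wild type 1 and 3 and −0.26 to −0.08 with antibiotics. It also had the lowest mitochondrial share, 26.4%. Its 10 Paneth cell markers summed to 158459 normalized counts, against 39559 and 19213 in wild type 1 and 3 and 7494 to 26070 with antibiotics. Of the 9 Paneth markers tested, 8 had fold changes below 0. The 10 goblet cell markers, 8 of them below 0, summed to 7108 to 28561 in wild type and 3614 to 14151 with antibiotics. All 9 enterocyte markers had fold changes below 0 (median −0.71), and most of the ER genes did as well (median −0.40). The enterocyte markers summed to 29132 to 65230 in wild type and 26547 to 38154 with antibiotics. Smooth muscle markers went the other way, with 2 of 10 rising, all 10 above 0, and sums of 57683 to 166387 in wild type and 228044 to 241339 with antibiotics. Pancreatic acinar markers (1 of 7 fell) summed to 209 to 433 in wild type and 57.6 to 105 with antibiotics, and adipocyte markers (all 9 below 0) to 7863 to 50618 and 3564 to 8152. The 10 plasma cell markers summed to 1018 to 1820 in wild type and 800 to 1203 with antibiotics, which overlapped. The 8 hepatocyte markers summed to 6063 to 17377 in wild type and 2527 to 4598 with antibiotics, without overlap. Over all jejunal genes 0.761% rose and 0.519% fell. No marker of these lists was at 0 in all jejunal libraries, and the part of these cell types in the jejunal values was not tested.

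The third comparison asked whether the change with antibiotics differed between the tissues, with an interaction of tissue and treatment fitted with edgeR on recovered reads of genes found in both tables. The change was called higher in liver than in jejunum for Creld2 and Erp29, 2 of the 36 genes, beside 0.0423% of all 14187 genes tested (0.0141% were called lower and 0.0564% either way). The liver change minus the jejunal one, with signs kept, was above 0 for 32 of the 36 genes, beside 7247 of all 14187 genes tested. Its median was 1.43 on the log2 scale, against 0.02 over all genes. This is not a count of larger changes in liver: Erp29 had −2.04 in jejunum and 0.31 in liver. For 21 genes the limma fold change was below 0 in jejunum and above 0 in liver, for 11 it was above 0 in both and for 4 below 0 in both. The share of all genes with each pair of signs is not given here, and the jejunal signs depend on the scaling, as given above. Called in both tissues by limma were Fkbp2, which fell in both, and Fam8a1, which rose in both. Within each tissue edgeR also called Fkbp2 (edgeR adjusted p = 0.0401 in liver and 0.0197 in jejunum). It called Fam8a1 in neither (edgeR adjusted p = 0.0557 in liver and 0.065 in jejunum).

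Creld2 had 274, 413 and 245 in the wild-type libraries and 195, 157 and 127 with antibiotics in jejunum, where it was not called (log2 fold change −0.94, SE 0.32, limma adjusted p = 0.126). All of these jejunal antibiotics libraries were below wild type, while the liver libraries given above were all higher. The difference was 2.69 (edgeR adjusted p = 0.00911), and without liver wild type 1 or 3 its adjusted p was 0.052 and 0.0795. Erp29, which fell in jejunum, had 698, 979.5 and 1114 in the wild-type libraries and 1106, 1242 and 1050.3 with antibiotics in liver, where the groups overlapped. Its difference was 2.26 (edgeR adjusted p = 0.0386). That call was lost without jejunal wild type 3, without liver wild type 1 or 3 and without any one antibiotics library of either tissue, with adjusted p up to 0.14. Without liver wild type 1 or 3, edgeR called none of the 36 genes, and 19 and 20 of them had an unadjusted p under 0.05. Next in size among the differences that did not pass were Edem3 at 2.56 (edgeR adjusted p = 0.126), P4hb at 2.20 (edgeR adjusted p = 0.111), Pdia4 at 2.14 (edgeR adjusted p = 0.0586) and Hyou1 at 2.13 (edgeR adjusted p = 0.0708). Limma called 6 and DESeq2 18 of the 36 for this difference, all higher in liver. The share of all genes is given here only for the main edgeR fit. The counts by other methods, at an unadjusted p or without a library have none beside them.

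**Figure D3:**
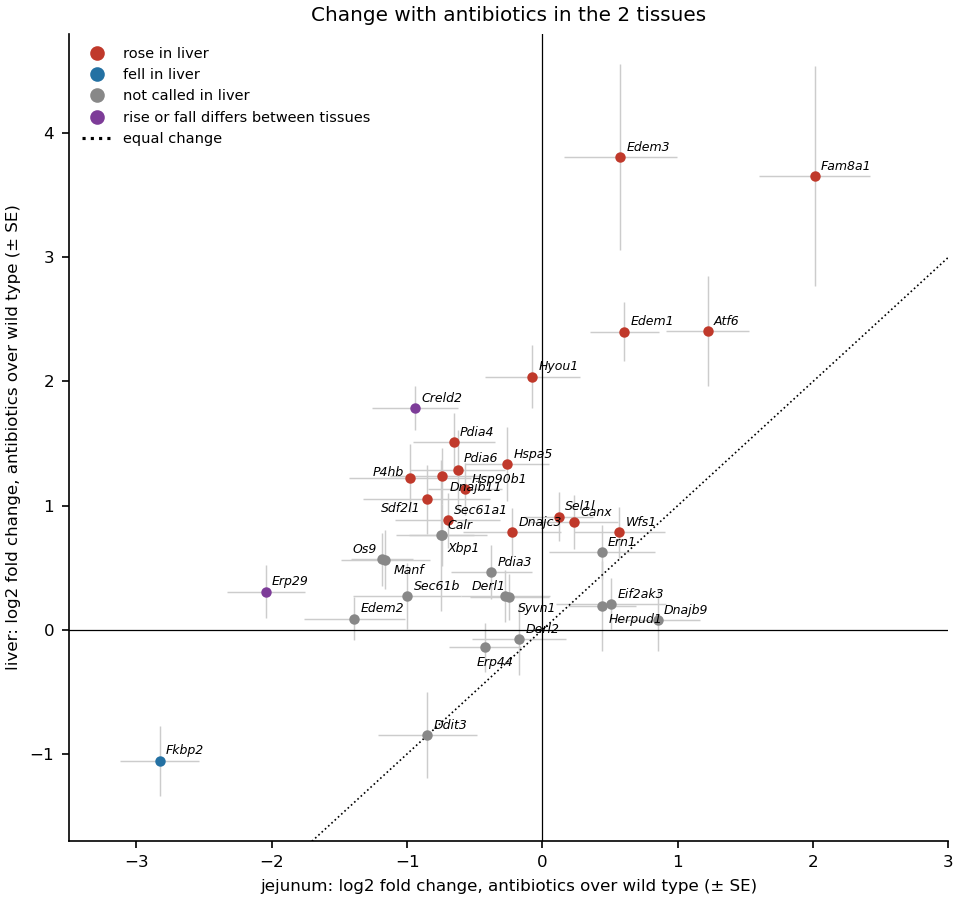
Log2 fold change of antibiotics over wild type in jejunum (x axis) and in liver (y axis) for the 36 genes, with SE as bars and a dotted line of equal change. Colour gives the liver call, and purple marks Creld2 and Erp29, whose changes differed between the tissues. By edgeR the liver change minus the jejunal change, with signs kept, was above 0 for 32 of the genes, beside 7247 of all 14187 genes tested.

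Levels in the saline groups were set side by side as TPM, which corrects for gene length and library size but joins tables that were normalized separately, so they were not tested. Liver was above jejunum in all 3 libraries for 12 of the 36 genes, beside 13.4% of all 16531 shared genes, and below it for 0 (14.7%). The median ratio of liver to jejunum was 1.96 over these genes and 0.786 over all shared genes. Dnajc3 had the largest ratio, with 79.2, 136 and 109 TPM in liver wild type and 5.62, 26.4 and 3.11 in jejunum, so that the lowest liver library was above the highest jejunal one. Derl2 had 52.5, 144 and 126 TPM in liver and 15.2, 37.5 and 3.32 in jejunum, also apart. Pdia4 had 82.4, 214 and 107 and 13.9, 58.0 and 6.28, and Sdf2l1 had 38.5, 133 and 64.9 and 5.97, 38.1 and 3.09. For Sdf2l1 the lowest liver library was barely above jejunal wild type 2.

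Within liver wild type the highest mean TPM were those of Calr (609 ± 297, SD, n = 3), P4hb (453 ± 245) and Pdia3 (399.9 ± 153), whose SDs overlap. The lowest were those of Edem3 (1.27 ± 1.60) and Atf6 (2.86 ± 2.49). Hspa5 had 111, 355 and 178 TPM in liver wild type and 34.0, 149 and 16.2 in jejunum, and its groups overlapped through jejunal wild type 2. Without that library 28 of the 36 genes were higher in liver without overlap. With fewer libraries groups separate more easily, and the share of all genes for that setting is not given here. With the mitochondrial genes left out of the TPM total, 7 genes were above and 4 below, again without a share of all genes beside them. The count of genes higher in liver thus depends on how the mitochondrial reads are treated.

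Fold changes followed gene length in both tissues, longer genes having higher values. Over the 36 genes the correlation of log2 fold change with log2 gene length was 0.52 in jejunum and 0.29 in liver (Spearman 0.56 and 0.32), against 0.36 and 0.30 (Spearman 0.38 and 0.37) over all genes with a mean of at least 50. Genes are not independent replicates and share their libraries, so no p is given. The rise in liver was as large after each library was corrected for this trend: the median log2 fold change was 0.81 and 32 of 36 genes were above 0. That correction left 17 calls, losing Canx, Fam8a1, Fkbp2, Sel1l and Wfs1 and adding Calr, Manf and Sec61b. In jejunum the median after the correction was −0.37, with 9 genes above 0.

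**Figure D4:**
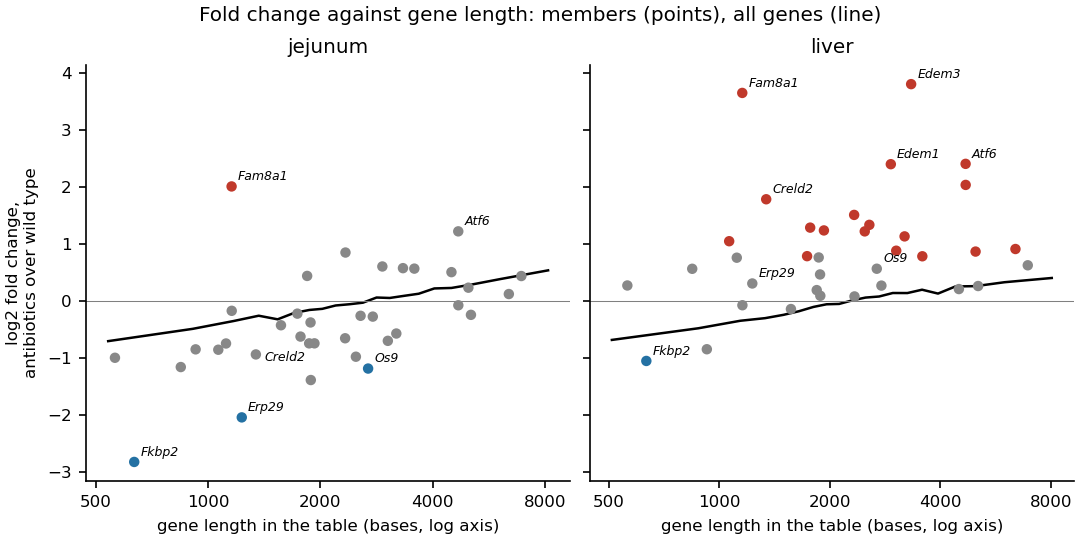
Log2 fold change of antibiotics over wild type against gene length in the table (log axis) for the 36 genes in jejunum and liver. Red points rose, blue points fell, grey points were not called, and the black line joins medians in length bins of all genes with a mean of at least 50; the liver points lie mostly above the line, with the short Fkbp2 below it.

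Other genes of the secretory pathway were read from lists of their own, outside the 36. Over all liver genes tested, 7.93% rose and 4.89% fell, with a median log2 fold change of −0.01, and these are the values to set beside each list. In liver, further ER folding factors rose in 10 of 33 (median log2 fold change 0.39) and none fell. Uggt1, the glucosyltransferase that returns misfolded glycoproteins to calnexin, had 678, 1285 and 967 in the wild-type libraries and 3005, 2945 and 3371 with antibiotics. Its groups were far apart (log2 fold change 1.71, SE 0.24, adjusted p = 0.00689). Ero1b, which reoxidises disulfide isomerases, had a log2 fold change of 1.41 (adjusted p = 0.00803). Txndc5, a disulfide isomerase, had 1.01 (adjusted p = 0.0121) and Hspa13, an Hsp70-like protein, had 1.06 (adjusted p = 0.0157).

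Further degradation genes rose in 6 of 34 and none fell (median 0.07, near that of all genes), among them Erlin2, Yod1, Man1b1 and Marchf6, with log2 fold changes of 1.24, 2.35, 0.85 and 2.10. Translocon and N-glycosylation genes rose in 3 of 32, a share near the 7.93% of all genes, with a median of 0.49: Stt3b, a catalytic subunit of the oligosaccharyltransferase (log2 fold change 1.52, SE 0.29, adjusted p = 0.014), its partner Rpn2 (1.22) and the signal peptidase subunit Spcs3 (0.81). ER-to-Golgi transport genes rose in 4 of 26 (7.93% of all genes did so; median 0.43). Lman1, a cargo receptor for secreted glycoproteins, had 122, 398 and 137 in the wild-type libraries and 1159.9, 1068 and 1081 with antibiotics, with every antibiotics library well above wild type (log2 fold change 2.54, SE 0.42, adjusted p = 0.0134). The coat subunits Sec24a, Sec24d and Sec23a had log2 fold changes of 2.51, 1.13 and 1.79.

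Of 20 further genes of unfolded protein response transcription and the PERK-ATF4 branch, 3 rose and 1 fell in liver (median 0.23), beside 7.93% and 4.89% of all genes, so that the fall is no more than the share of all genes. Asns, the asparagine synthetase that ATF4 induces, had 42.0, 53.1 and 58.2 in the wild-type libraries and 109.5, 188 and 248 with antibiotics, all higher with antibiotics (log2 fold change 1.74, SE 0.32, adjusted p = 0.0129). Creb3l2, a membrane-bound factor related to ATF6, had a log2 fold change of 1.87 and Ddit4, an inhibitor of mTORC1, had 1.47 (adjusted p = 0.0272 and 0.0313). Sesn2, a stress-induced leucine sensor, fell by 0.91 on the log2 scale (adjusted p = 0.0283). Without liver wild type 3 none of these 5 lists had a limma call, and the named genes had adjusted p of 0.0535 (Uggt1) or more. At an unadjusted p under 0.05 that fit had 14 folding, 9 degradation, 9 translocon, 7 transport and 7 stress response genes. Over all genes it had 3834 of 16556.

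In jejunum the same 5 lists held 1 limma call, beside 1.28% of all jejunal genes called in either direction, so this is no more than the share of all genes. Cebpb, a transcription factor that pairs with CHOP, had 1267, 933 and 1490.5 in the wild-type libraries and 538, 435 and 473 with antibiotics and fell (log2 fold change −1.33, SE 0.26, adjusted p = 0.0406). It lost its call without wild type 3 or without any one antibiotics library, with adjusted p up to 0.19. Limma called none of the other folding, degradation, translocon and transport genes, of which 12, 5, 6 and 2 had an unadjusted p under 0.05. Over all jejunal genes 4324 of 19450 had such a p. Of these 4 lists edgeR called none (12, 10, 6 and 3 at an unadjusted p under 0.05), and DESeq2 called 4, 1, 2 and 0. Over all jejunal genes edgeR had 3692 of 15177 at an unadjusted p under 0.05, and DESeq2 called 1772 of 21568.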

How the data were processed

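Paired reads of poly(A) RNA were made from 12 libraries, per the labels' protocols. HISAT2 2.0.5, CASAVA 1.4 and DESeq2 1.20.0 are named in the submitters' processing notes. The genome build and the read counter are not given in the sources used here, nor is use of strand, so reads of overlapping or antisense genes may be shared. Jejunum and liver have separate tables.

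The count columns hold the authors' normalized signal: whole reads over a factor for each library. Multiplied back, 100% of values were whole to within 0.01 reads. The deposited FPKM were rescaled to TPM for levels. The deposited log2 fold changes and p-values are the authors' own comparison. The gene lengths are as deposited.

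Genes were tested within each tissue with limma 3.58.1 (trend, robust; R 4.3.3) on log2(normalized count + 1), for genes whose mean reached 1, with Benjamini-Hochberg adjustment over all of them and a threshold of 0.05. The added 1 shrinks the fold changes of low genes. Those of Edem3 and Fam8a1 in liver (3.81 and 3.65) were nevertheless larger than by edgeR (3.21 and 2.82) or DESeq2 (3.24 and 2.86). The tissue difference used edgeR 4.0.16 (quasi-likelihood, TMM, filterByExpr) on 16531 genes with the same identifier in both tables, of which 14187 were tested. DESeq2 1.42.0 was an alternative, as were pseudocounts of 0.1 and 5, filters, scalings, a replicate block, a correction for gene length (lowess, span 0.3, genes whose mean reached 50) and each library left out. Values in each library were given for called genes, the 15 with the smallest p where more were called, and for Hspa5, Xbp1, Atf6, Ern1, Eif2ak3 and Ddit3. From other lists up to 4 genes with the smallest p were named. Members, lists, markers and tests were chosen with earlier results of these data known. Promoter matches came from RefSeq, whose build GRCr8 may not be that of the tables. Tests were checked on simulated data, and duplicate libraries were looked for without a hit.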

Additional observations from a re-analysis of the deposited data

Results flagged for a closer look

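Both differences between the tissues that passed the edgeR test belong here. For Creld2 the change with antibiotics was 2.69 log2 units higher in liver than in jejunum (adjusted p = 0.00911), with all 3 liver antibiotics libraries above wild type and all 3 jejunal ones below. For Erp29 the difference was 2.26 (adjusted p = 0.0386), with all 3 jejunal antibiotics libraries below wild type and the liver groups overlapping. The mitochondrial share of reads differed between groups in liver and between libraries in jejunum, as given above, and its part in either difference was not tested.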

How the results depend on the processing

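In liver, the 19 calls were 14 to 20 under every alternative that kept all libraries, and 3 to 23 with each library left out (74 to 4416 of all genes, against 2121). On the recovered reads edgeR called 17 of the 36 and 2189 of all liver genes. In jejunum, the 4 calls became 7 with the replicate number as a block, 0 with library totals, 1 after correction for gene length, 7 with DESeq2 and 0 to 8 with each library left out. The jejunal count over all genes, 249, became 160 with a pseudocount of 0.1, 1625 with the block, 59 with library totals, 24 after the length correction, 97 with edgeR, 1772 with DESeq2 and 1 to 1902 with each library left out. For the tissue difference, the 2 calls became 6 with limma, 9 with limma after the length correction, 18 with DESeq2 and 0 to 15 with each library left out. The share of all genes called for this difference under these alternatives is not given here. The 12 genes without overlap in wild-type TPM were 12 to 28 with each library left out, 28 only without jejunal wild type 2. The share of all genes without overlap in these settings is not given here. The cause of these changes was not tested.

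With replicate number as a block, 14 liver genes were called, without Canx, Dnajc3, Fam8a1, Sec61a1 and Wfs1, and the tissue difference kept 2. Whether same-numbered libraries belong together is not given in the labels. Their deviations correlated at 0.08, 0.105 and 0.017 in jejunum and at 0.05, −0.055 and −0.082 in liver. Libraries of different numbers correlated at −0.096 to 0.022 in jejunum and at −0.076 to 0.13 in liver. Jejunal antibiotics 3 correlated slightly more with wild type 1 (0.022) than with its own number. Signs turned for Ern1 in jejunum after the length correction (−0.0405) and without wild type 3 (−0.0268), for Hspa5 in jejunum with library totals (0.24) and without wild type 2 (0.0739), and for Eif2ak3 in liver after the length correction (−0.0331). With each library left out, Ern1 ranged from −0.0268 to 0.74 and Hspa5 from −0.47 to 0.0739. Of the values of named genes under these alternatives, 283 liver values kept their side of the threshold, 81 lost a call, 3 gained one and 1 changed sign. In jejunum the numbers were 127, 26, 3 and 4, and for the tissue difference 25, 11, 0 and 0. The other pathway lists were run under the same alternatives after the data were seen. Low genes limit the sizes of Edem3 and Fam8a1, which had 8 to 125 reads in the liver wild-type libraries.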

Other observations

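Chaperones outside the ER were read from lists of their own. In liver, where limma called 12.8% of all genes in either direction, it called 0 of 27 cytosolic chaperones (2 at an unadjusted p under 0.05) and 0 of 12 mitochondrial ones (4), while edgeR called 0 and DESeq2 1 of each list. Over all liver genes 5237 of 16540 had an unadjusted p under 0.05 by limma, and DESeq2 called 3079 of 18703. The median log2 fold change was 0.01 for the cytosolic and 0.30 for the mitochondrial list. Hspa8, the constitutive cytosolic Hsp70, had 3716, 3934 and 5456 in the wild-type libraries and 3629, 3222 and 1987 with antibiotics, so that every antibiotics library lay below wild type, the nearest by little (log2 fold change −0.59, SE 0.27, adjusted p = 0.162). Hspa9, the Hsp70 of the mitochondrial matrix, had 196, 1400.4 and 407 in the wild-type libraries and 2082, 2005 and 2224 with antibiotics. Its wild-type libraries spread widely and wild type 2 was nearest to the antibiotics libraries (log2 fold change 2.12, SE 0.68, adjusted p = 0.0922). In jejunum limma and edgeR called 0 in both lists (limma 5 and 3, edgeR 5 and 5 at an unadjusted p under 0.05) and DESeq2 called 3 and 1, with medians of −0.03 and −0.53. Over all jejunal genes 4324 of 19450 had such a p by limma and 3692 of 15177 by edgeR, and DESeq2 called 1772 of 21568. The difference between these lists and the ER genes was not tested.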
